A study of Rattus norvegicus with 15 samples.

Results

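A group of 8 nuclear genes that govern how many mitochondria a cell makes, how these fuse and divide, and how damaged ones are removed was followed in rat cortical astrocytes that had been given isolated mitochondria after oxidative stress. The 8 genes were taken by their Ensembl identifiers and kept only if the chromosome in the count tables was the one known for the gene, which held for 8 of 8 out of the 32552 genes listed. They comprise the biogenesis genes Ppargc1a, Tfam and Nrf1, the dynamics genes Opa1 and Dnm1l, the mitophagy genes Pink1 and Bnip3, and the outer membrane channel gene Vdac1. The question was whether these genes of the recipient cell respond to added organelles.

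The data were 15 bulk RNA-seq samples of primary wild-type astrocytes, 3 in each of 5 groups. The cultures came from the cortices of Sprague Dawley rats aged 1 to 2 days. Control astrocytes received water as vehicle, and the other 4 groups received 100 µM H2O2 for 30 min. 24 h later, 3 of the H2O2 groups were given material prepared from rat placenta, and RNA was collected 6 h after that. One of these groups received unmodified mitochondria, another received MitoCoat (mitochondria coated with the cationic and fusogenic lipids DOTAP and DOPE), and the last received MitoCoat-mRNA (RNA extracted from the mitochondrial fraction and wrapped in the same lipids, without organelles). The groups with unmodified mitochondria and with MitoCoat are called organelle recipients here. No group of unstressed cells given mitochondria is part of these data, and the study names a pair of doses of mitochondria without saying which was given to the sequenced wells. The sample descriptions name a mitochondria-enriched fraction as the source of the RNA, whereas the study's text describes RNA of the astrocytes. The latter was assumed.

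Total counts ranged from 35315654 to 46778663 per sample. The share of counts on the 35 genes of the mitochondrial chromosome was 3.36% ± 0.610 in controls, 3.79% ± 0.820 after H2O2, 3.33% ± 0.146 in recipients of unmodified mitochondria, 4.08% ± 0.445 in the MitoCoat group and 3.43% ± 0.711 in the MitoCoat-mRNA group (SD, n = 3 each), and the ranges of the recipients overlapped those of the H2O2 group. The added material came from the same species, so transcripts brought in with it and transcripts of the astrocytes cannot be told apart in these counts. In bulk RNA, fewer cells of a type and less RNA per cell cannot be told apart either. The astrocyte identity of the cultures was not checked against marker genes, because 0 of the identifiers could be paired with symbols by the reference table. The study's text calls the samples of a group biological replicates, but neither it nor the labels say whether they came from separate cultures or animals, so the p-values measure only the spread between these samples.

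Mitochondrial biogenesis is driven by the coactivator encoded by Ppargc1a, which works with nuclear factors such as the product of Nrf1 to switch on nuclear genes for mitochondrial proteins, among them Tfam, the factor that packages and transcribes mitochondrial DNA. The inner membrane is fused by the GTPase encoded by Opa1, and mitochondria are divided by the GTPase encoded by Dnm1l. Damaged organelles are marked for autophagy by the kinase encoded by Pink1 or through the outer membrane receptor encoded by Bnip3, while Vdac1 encodes the abundant channel that lets metabolites pass the outer membrane and is a known target of ubiquitin tagging during mitophagy.

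In the Rnor6.0 coordinates of the count tables, Ppargc1a (ENSRNOG00000004473) lies on chromosome 14 from 63095720 to 63187009 on the plus strand, Tfam (ENSRNOG00000000613) on chromosome 20 from 18594037 to 18606151 (plus) and Nrf1 (ENSRNOG00000008752) on chromosome 4 from 57378069 to 57445341 (plus). Opa1 (ENSRNOG00000001717) lies on chromosome 11 from 74720254 to 74793803 (minus) and Dnm1l (ENSRNOG00000001813) on the same chromosome from 88830957 to 88880198 (plus). Pink1 (ENSRNOG00000015385) lies on chromosome 5 from 156677146 to 156689415 (minus), Bnip3 (ENSRNOG00000017243) on chromosome 1 from 211248098 to 211265282 (minus) and Vdac1 (ENSRNOG00000006375) on chromosome 10 from 37724915 to 37752826 (plus). The counts are sums over all annotated exons, untranslated parts included. The chromosome and strand were the same in RefSeq's GRCr8 annotation for all 8 genes, and the span of Bnip3 was 17185 bases in both. The deposited model of Ppargc1a was much shorter than RefSeq's, at 91290 against 655711 bases. That of Nrf1 was also shorter, at 67273 against 105801 bases. The models of Opa1 (73550 against 77083), Dnm1l (49242 against 51615) and Vdac1 (27912 against 31166) were shorter by less. Reads from any exons outside the deposited models were not counted. The exons of Pink1 were overlapped by 1 other gene, which had 0 counts in every sample.

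Pink1 and Bnip3 were the only 2 of the 8 genes called in any of the 9 comparisons made in the way described in the next paragraphs, and their promoters are shown for that reason. The 250 bases before each RefSeq transcription start are given from 5′ to 3′ on the gene's own strand in GRCr8, at chr5:155825951-155826200 for Pink1 and chr1:203154963-203155212 for Bnip3, both on the minus strand. Capitals mark CACGTG, the letters of an E-box.
Pink1: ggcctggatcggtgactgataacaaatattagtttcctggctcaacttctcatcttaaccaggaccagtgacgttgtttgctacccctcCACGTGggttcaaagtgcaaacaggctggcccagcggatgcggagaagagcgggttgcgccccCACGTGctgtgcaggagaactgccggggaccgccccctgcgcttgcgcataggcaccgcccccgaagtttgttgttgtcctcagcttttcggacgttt
Bnip3: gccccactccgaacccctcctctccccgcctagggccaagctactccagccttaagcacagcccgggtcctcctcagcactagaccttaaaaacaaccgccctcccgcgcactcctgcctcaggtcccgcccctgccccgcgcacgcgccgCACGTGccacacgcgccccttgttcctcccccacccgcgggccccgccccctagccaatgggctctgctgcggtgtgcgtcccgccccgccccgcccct

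The Pink1 promoter held CACGTG with its first base 161 and 98 bases before the start, and the Bnip3 promoter held it 99 bases before the start. The other 6 promoters held none, and CACGTG was found on either strand in 5.59% of the 33469 RefSeq promoters of the same length. That background had a median G and C content of 51.2%, against 57.6% for Pink1, 72.4% for Bnip3 and 46.0% to 75.2% for the other 6. A background of like content was not used. CACGTG contains the shorter hypoxia factor core ACGTG, found in 16.6% of promoters, which also stood in the windows of Opa1 (125 bases before the start) and Vdac1 (250 bases before). The longer TFEB form TCACGTGA (0.657% of promoters), the NRF1 letters GCGCATGCG (1.35%) and the estrogen-related receptor half-site AAGGTCA (3.99%) were found in 0 of the 8 windows on either strand. These are matches of letters only. The search for CACGTG was added after the promoters had been read.

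Levels between genes were compared as CPM (counts per 1000000 counts, with library sizes scaled by TMM) per 1000 bases of exon. Over all 15 samples, Vdac1 had the highest level at 224 ± 18.7 (SD, n = 15) and stood at the 97.8th percentile of 16631 expressed genes. Pink1 came next at 48.5 ± 8.06. Tfam (21.3 ± 1.89), Dnm1l (21.0 ± 2.82) and Bnip3 (16.9 ± 2.11) followed, with ranges over samples that overlapped. Opa1 had 13.2 ± 1.23 and Nrf1 6.58 ± 0.530. Ppargc1a was lowest at 1.19 ± 0.345, at the 24.6th percentile, and rested on 70 to 218 counts per sample against 12978 to 19604 for Vdac1. The plot of levels per exon length shows the genes by group.

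**Figure D1:**
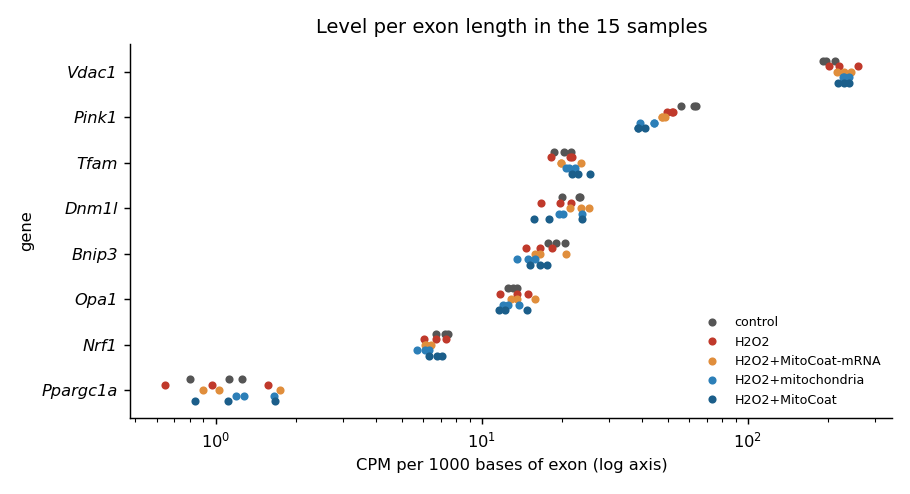
Level of each of the 8 genes in CPM per 1000 bases of exon on a log axis. Each dot is 1 of the 15 samples, coloured by group. Vdac1 lies highest (mean 224) and Ppargc1a lowest (mean 1.19), while the dots of Tfam, Dnm1l and Bnip3 overlap.

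The spread within a gene was smallest for Nrf1 and largest for Ppargc1a. The ratio of the highest to the lowest of the 15 samples was 1.30 for Nrf1, 1.36 for Vdac1, 1.37 for Opa1, 1.40 for Tfam, 1.53 for Bnip3, 1.60 for Dnm1l, 1.66 for Pink1 and 2.71 for Ppargc1a. In Pink1 this spread ran along the groups, and in Ppargc1a it ran along the replicate numbers instead, as described with each gene below.

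**Figure D2:**
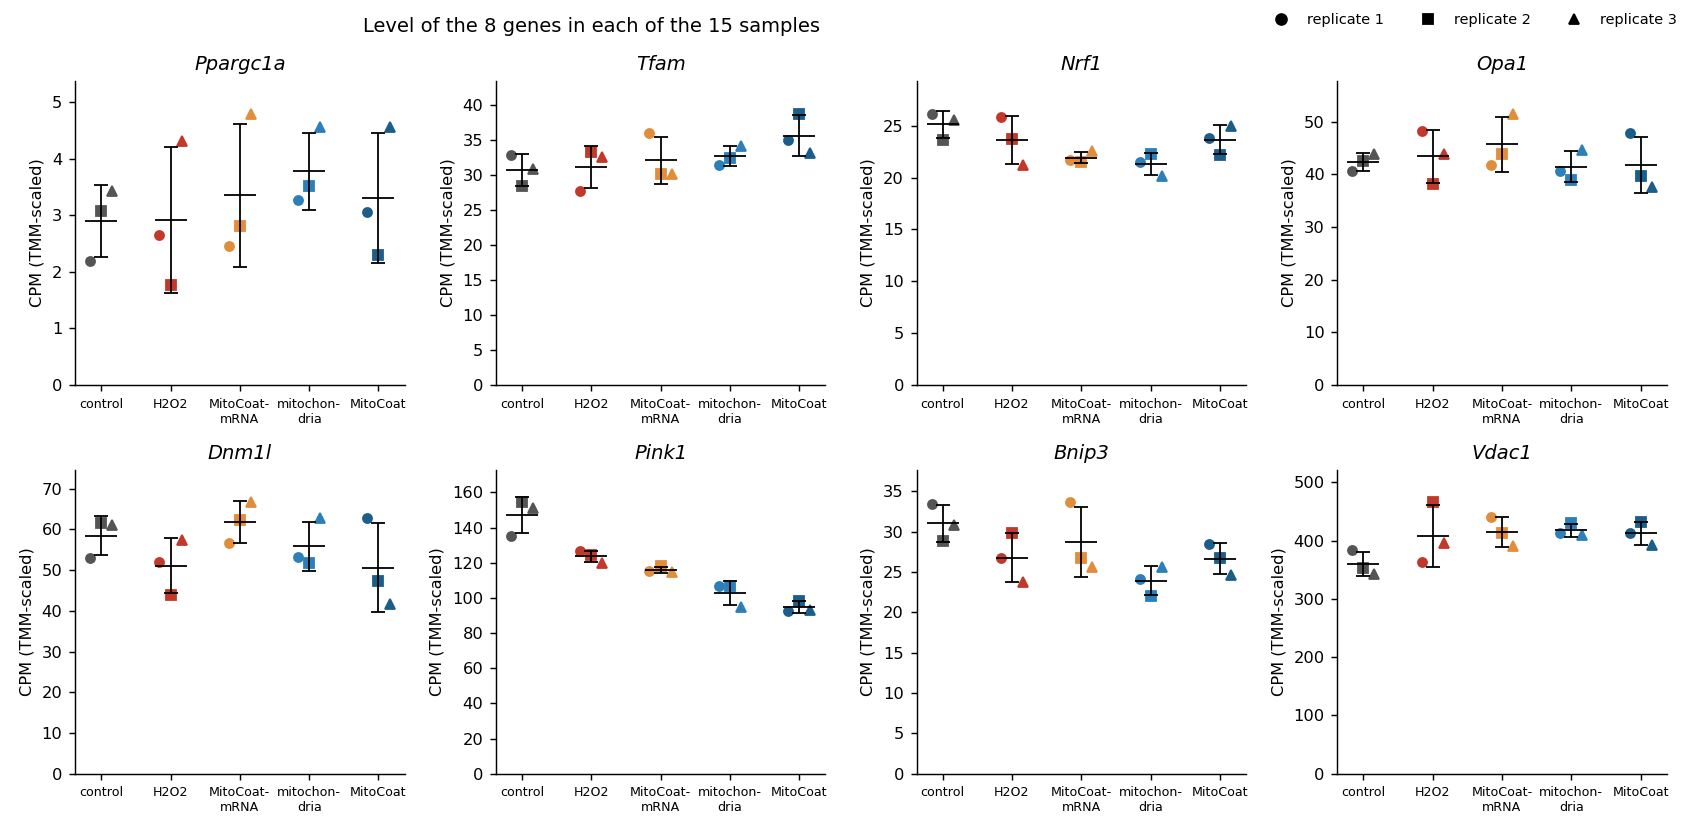
TMM-scaled CPM of the 8 genes in each sample, with the replicate number given by the marker and the horizontal bar and whiskers showing mean and SD of 3 samples. The groups are drawn as control, H2O2, MitoCoat-mRNA, unmodified mitochondria and MitoCoat, which is not the order of the sample list. In the drawn order, Pink1 steps down from control (mean 147) to MitoCoat (mean 94.8). In Ppargc1a the triangle of replicate 3 is the highest marker in each of the 5 groups.

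The response to added organelles was first examined across the 12 stressed samples, by setting the mean of the recipients of unmodified mitochondria and MitoCoat against the mean of the groups with H2O2 alone and with MitoCoat-mRNA. Pink1 was lower in recipients, by 17.3% (fold 0.827), and the 7 other genes were not called. In this comparison edgeR's quasi-likelihood test called 1 of the 8 genes at a Benjamini-Hochberg adjusted p under 0.05, and 9.03% of the 16378 genes tested were called, 4.15% as lower. Regardless of the test, the estimates of 3 of the 8 genes were above 0 and those of 5 below, with a median log2 fold change of −0.05, against 0.01 over all genes. The 95% confidence interval lay within 1.5-fold of no change for 7 of the 8, the exception being Ppargc1a, whose interval lay within 2-fold only.

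Pink1 had 107, 107 and 94.7 CPM with unmodified mitochondria. With MitoCoat it had 92.8, 98.5 and 92.9 CPM. The values were 126, 124 and 120 CPM with H2O2 alone and 115, 118 and 115 CPM with MitoCoat-mRNA. The 6 recipients thus all lay below the 6 other stressed samples, which was the case in one direction or the other for 6.09% of all tested genes. The log2 fold change was −0.27 (standard error 0.0520, 95% interval −0.39 to −0.16, edgeR adjusted p = 0.00332), and Pink1 ranked 602nd of 16378 genes by p. Among the genes called lower, the median log2 fold change was −0.46, so the change in Pink1 was smaller than that of the typical called gene. It was called in 12 of 12 fits that left out 1 sample, with log2 fold changes from −0.29 to −0.25.

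The other mitophagy gene, Bnip3, had a log2 fold change of −0.13 (95% interval −0.32 to 0.06, adjusted p = 0.473). Among the biogenesis genes, the log2 fold change was 0.18 for Ppargc1a (−0.35 to 0.71, and 0.02 to 0.38 over the fits that left out 1 sample), 0.11 for Tfam (−0.04 to 0.27) and −0.02 for Nrf1 (−0.16 to 0.13). For the fusion gene Opa1 it was −0.09 (−0.28 to 0.09) and for the fission gene Dnm1l −0.08 (−0.29 to 0.14). Vdac1, the most abundant of the 8, had the narrowest interval of the 7 uncalled genes, with a log2 fold change of 0.02 (−0.12 to 0.16).

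**Figure D3:**
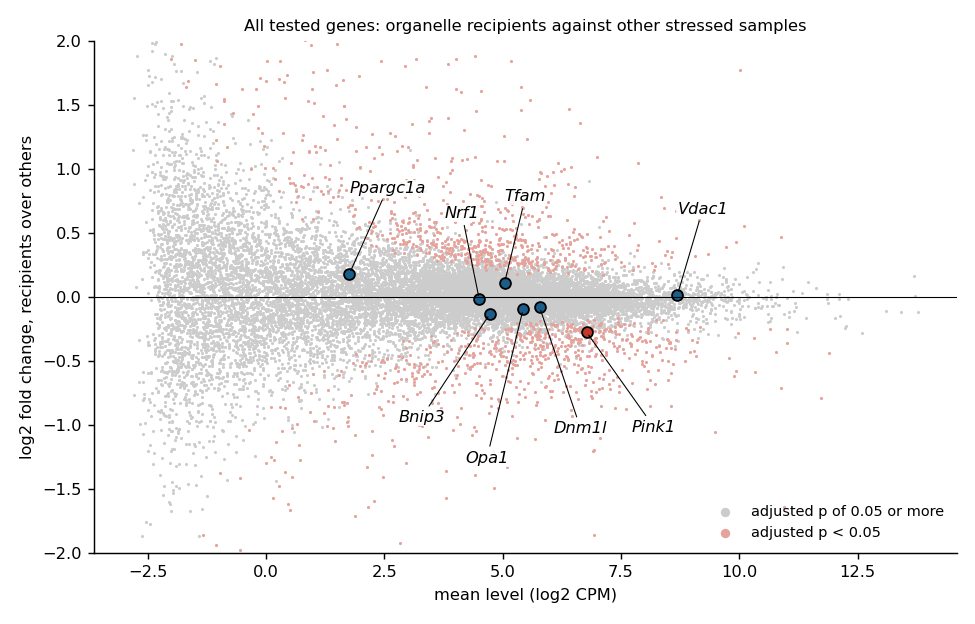
Log2 fold change of organelle recipients over the other stressed samples against mean level (log2 CPM) for all 16378 tested genes, with the 8 genes as large dots. Small dots called at an adjusted p under 0.05 are pink, and 103 genes lie beyond the plotted range of 2 in either direction. Pink1 (−0.27) is the 1 large dot that was called, and the other 7 lie among uncalled genes.

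Each treatment was then compared with H2O2 alone, on its own 6 samples. These 3 comparisons share the same H2O2 samples. With MitoCoat, 1 of the 8 genes was called, against 3.05% of the 15724 genes tested (1.58% lower), and this was Pink1. With unmodified mitochondria, edgeR and DESeq2 each called 0 of the 8, where edgeR called 3.59% of 15613 genes and DESeq2 5.26% of 16800. At an unadjusted p under 0.05 there was 1 of the 8, again Pink1, and 2161 of the 15613. With MitoCoat-mRNA, edgeR and DESeq2 called 0 of the 8. The edgeR test called 0% of its 15506 genes, and DESeq2 called 0 of 22255. In edgeR, 1 of the 8, Dnm1l, had an unadjusted p under 0.05, as had 463 of the 15506 (326 without MitoCoat-mRNA replicate 3 and 799 without H2O2 replicate 3).

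The fall of Pink1 with MitoCoat was 23.8%, from 124 ± 3.25 to 94.8 ± 3.25 CPM (SD, n = 3 each), with a log2 fold change of −0.39 (standard error 0.0860, 95% interval −0.59 to −0.20, edgeR adjusted p = 0.0419). No MitoCoat sample reached the lowest H2O2 sample, and such a lack of overlap was found for 20.7% of all tested genes. The call was near the threshold. It was lost whichever of the 6 samples was left out, where the log2 fold change was −0.42 to −0.38 and the adjusted p 0.0857 to 0.149. The share of all genes called also fell in these fits, from 3.05% to between 1.24% and 2.65%.

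With unmodified mitochondria, Pink1 had 103 ± 7.01 CPM and a log2 fold change against H2O2 of −0.27 (standard error 0.0914, 95% interval −0.48 to −0.07, edgeR adjusted p = 0.179). All 3 samples lay below all 3 H2O2 samples, and 19.1% of all genes did not overlap in this comparison. Same-numbered samples deviated together here, and with the replicate number as a block the share of genes called rose to 7.96% and the adjusted p of Pink1 was 0.0882. MitoCoat and unmodified mitochondria were also compared directly, and edgeR and DESeq2 called 0 of the 8 genes, with 0 of the 8 at an unadjusted p under 0.05. The groups overlapped for all 8, where 10.9% of genes did not. Of the 15731 genes tested by edgeR, 0% were called, and 0.0318% (5 genes) with the replicate block, while 779 had an unadjusted p under 0.05 (399 without MitoCoat replicate 2, 429 without mitochondria replicate 1 and 1836 without MitoCoat replicate 1). DESeq2 called 3 of 22506 genes. Pink1 was at a log2 difference of −0.12 (95% interval −0.31 to 0.06), which includes both no difference and a level at 0.808 of that with unmodified mitochondria.

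With MitoCoat-mRNA, Pink1 had 116 ± 1.72 CPM. Its 3 values lay just below the lowest H2O2 value, with 8.91% of all genes not overlapping, and the log2 fold change was −0.10 (95% interval −0.27 to 0.07, adjusted p = 1.00). The 5 group means of Pink1 therefore ran from 147 in controls through 124, 116 and 103 to 94.8 CPM, in the order H2O2 alone, MitoCoat-mRNA, unmodified mitochondria and MitoCoat after control. None of the pairs of neighbours tested differed at an adjusted p under 0.05 on its own 6 samples, and MitoCoat-mRNA and unmodified mitochondria were not compared as a pair.

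**Figure D4:**
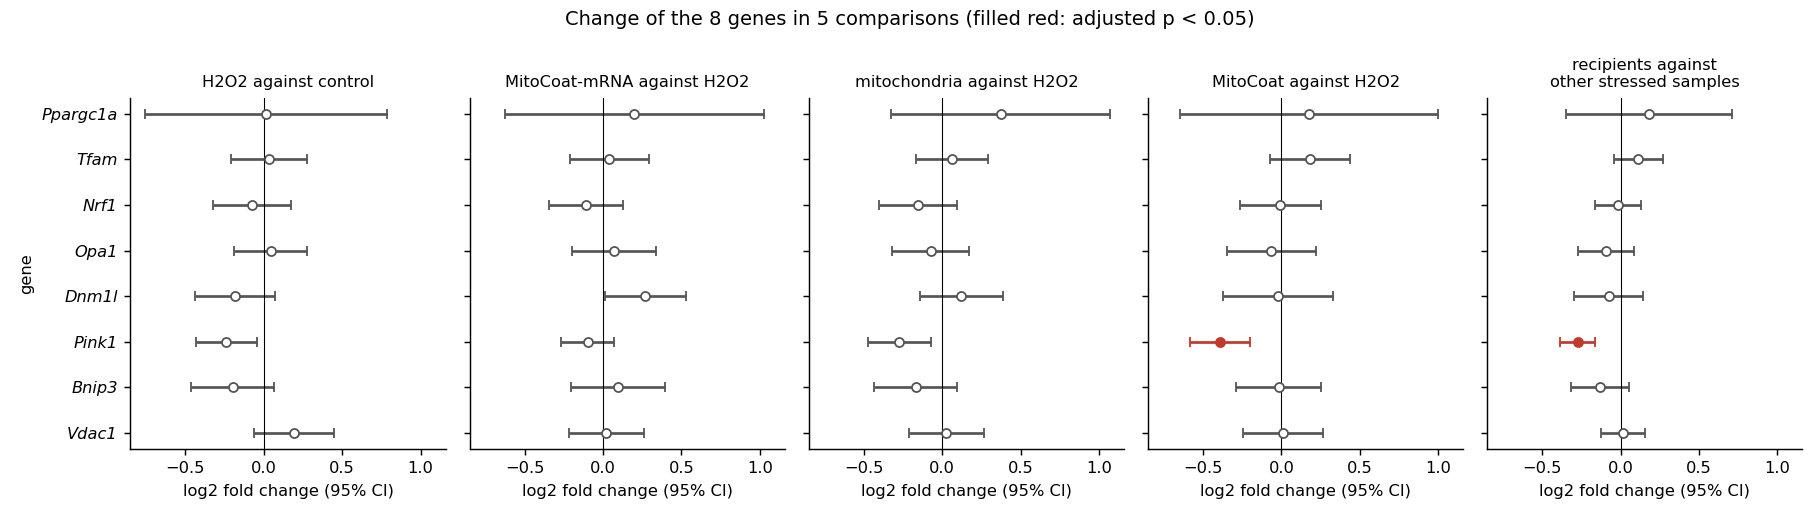
Log2 fold change of each of the 8 genes with its 95% confidence interval in 5 comparisons, with filled red symbols for an edgeR adjusted p under 0.05. Pink1 is the 1 filled symbol with MitoCoat (−0.39) and in the comparison of all recipients with the other stressed samples (−0.27), and the intervals of Ppargc1a are the widest in each panel.

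The fission gene Dnm1l had the largest log2 difference of the 8 genes between the MitoCoat-mRNA group and H2O2 alone. It had 56.5, 62.2 and 66.6 CPM with MitoCoat-mRNA and 52.1, 43.9 and 57.3 CPM with H2O2 alone. The groups overlapped at 1 pair of samples, and the log2 fold change of 0.27 (95% interval 0.02 to 0.53) had an unadjusted p of 0.0402 from edgeR and an adjusted p of 1.00. With MitoCoat, Dnm1l had 62.7, 47.3 and 41.6 CPM, the widest spread of this gene in any group (SD 10.9), and a log2 fold change of −0.02 (−0.38 to 0.33).

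Opa1, the fusion gene, had group means from 41.4 ± 2.94 CPM with unmodified mitochondria to 45.7 ± 5.16 CPM with MitoCoat-mRNA, and its log2 fold changes against H2O2 alone were −0.07 (unmodified mitochondria), −0.06 (MitoCoat) and 0.07 (MitoCoat-mRNA). All groups overlapped. Tfam was highest with MitoCoat, at 35, 38.7 and 33.1 CPM, against 27.7, 33.2 and 32.5 CPM with H2O2 alone. The overlap was 1 sample of each group, and the log2 fold change of 0.18 (95% interval −0.07 to 0.44) had an adjusted p of 0.524. Vdac1 had group means between 408 ± 52.7 and 417 ± 11.2 CPM in the 4 stressed groups, and its log2 fold changes against H2O2 alone were 0.03, 0.01 and 0.02 in the same order of treatments.

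H2O2 without further treatment was compared with control. Neither edgeR nor DESeq2 called any of the genes (0 of 8), although edgeR called 7.19% of 15650 genes and DESeq2 11.5% of 15444. At an unadjusted p under 0.05 there was 1 of the 8, Pink1, and 3512 of the 15650. Pink1 had 135, 154 and 151 CPM in controls, all above the H2O2 values, and 27.7% of all genes likewise had groups without overlap. Its log2 fold change was −0.24 (95% interval −0.43 to −0.04, adjusted p = 0.143). When all 15 samples were fitted together, Pink1 was called in this comparison (log2 fold change −0.25, adjusted p = 0.0389, with 10.4% of all genes called) and with unmodified mitochondria against H2O2 (−0.27, adjusted p = 0.0485, with 4.64% called).

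The treated groups were finally compared with the unstressed controls, which gives H2O2 and treatment together. The control samples are shared by these comparisons. Pink1 was called lower in all 3, and Bnip3 with unmodified mitochondria. With unmodified mitochondria 2 of the 8 genes were called, against 22.5% of all genes tested (12.2% lower). With MitoCoat 1 was called, against 24.1% (13.1% lower), and with MitoCoat-mRNA 1 was called, against 15.9% (8.72% lower).

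Pink1 was 30.0% lower than in controls with unmodified mitochondria (log2 fold change −0.52, standard error 0.0873, adjusted p = 0.00314), 36.0% lower with MitoCoat (−0.64, standard error 0.0821, adjusted p = 0.000803) and 20.9% lower with MitoCoat-mRNA (−0.34, standard error 0.0716, adjusted p = 0.0162, all from edgeR). The first 2 of these calls held in 6 of 6 fits that left out 1 sample. The call with MitoCoat-mRNA held in 2 of 6, and the adjusted p was 0.0734 without control replicate 2, 0.0602 without control replicate 3, 0.0536 without MitoCoat-mRNA replicate 2 and 0.0560 without MitoCoat-mRNA replicate 3. Over the 6 fits its log2 fold change stayed between −0.39 and −0.30, and in the 4 without the call the share of all genes called was 7.82% to 10.1%.

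Bnip3 had 33.4, 28.8 and 30.8 CPM in controls, 26.8, 29.8 and 23.7 CPM with H2O2 alone and 24.1, 22.0 and 25.6 CPM with unmodified mitochondria. The last group lay below all controls, as did the MitoCoat group, and it overlapped H2O2 alone. Groups without overlap were found for 39.6% of all genes with unmodified mitochondria against control and for 42% with MitoCoat. Its log2 fold change against control was −0.37 (standard error 0.0993, 95% interval −0.60 to −0.15, edgeR adjusted p = 0.0257). The call was lost without control replicate 3, without mitochondria replicate 1 and without mitochondria replicate 2, with an adjusted p of at most 0.112. Over the 6 fits that left out 1 sample the log2 fold change was −0.42 to −0.32, and in the 3 without the call 13.3% to 16.1% of all genes were called. With MitoCoat, Bnip3 had 28.5, 26.7 and 24.6 CPM (log2 fold change against control −0.23, adjusted p = 0.135), and with MitoCoat-mRNA it had 33.6, 26.7 and 25.6 CPM (−0.11, adjusted p = 0.585). Bnip3 was thus called in 1 of the 9 comparisons, and its difference between MitoCoat and unmodified mitochondria was 0.15 on the log2 scale (95% interval −0.09 to 0.38).

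Vdac1 had 383, 352 and 343 CPM in controls. With unmodified mitochondria it had 413, 430 and 409 CPM. The MitoCoat samples had 413, 433 and 393 CPM, and the MitoCoat-mRNA samples had 441, 413 and 391 CPM. Each treated group thus lay above all controls, whereas H2O2 alone (362, 466 and 395 CPM) overlapped them. Groups that did not overlap were found for 39.6%, 42% and 36.2% of all genes in these 3 comparisons. The log2 fold change of Vdac1 against control was 0.19 with H2O2 alone (edgeR adjusted p = 0.345), 0.22 with unmodified mitochondria (adjusted p = 0.0812), 0.19 with MitoCoat (adjusted p = 0.141) and 0.21 with MitoCoat-mRNA (adjusted p = 0.111), and none of these was called. Same-numbered samples of MitoCoat-mRNA and control deviated together, and with the replicate number as a block Vdac1 was called there (log2 fold change 0.21, adjusted p = 0.00377), when 36.9% of all genes were called. With unmodified mitochondria it was called without control replicate 1 (adjusted p = 0.0291), a fit that called 23.6% of all genes.

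Nrf1 had 26.2, 23.7 and 25.6 CPM in controls, 21.5, 22.2 and 20.2 CPM with unmodified mitochondria and 21.7, 21.5 and 22.6 CPM with MitoCoat-mRNA, both below all controls, in comparisons where 39.6% and 36.2% of all genes did not overlap. The log2 fold changes were −0.24 (95% interval −0.45 to −0.02, adjusted p = 0.108) and −0.19 (−0.38 to −0.0016, adjusted p = 0.154). With MitoCoat it was −0.10 (−0.32 to 0.12). Tfam with MitoCoat lay above all controls, in a comparison where 42% of all genes did not overlap. Its log2 fold change was 0.20 (95% interval −0.02 to 0.43, edgeR adjusted p = 0.172), and it was not called. Dnm1l against control with MitoCoat had a log2 fold change of −0.22 (adjusted p = 0.308), which became −0.41 and was called without MitoCoat replicate 1 (adjusted p = 0.0289), when 23.6% of all genes were called.

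Ppargc1a differed more between replicate numbers than between groups. It had 2.19, 3.07 and 3.43 CPM in controls, 2.65, 1.77 and 4.31 CPM with H2O2 alone and 3.27, 3.51 and 4.55 CPM with unmodified mitochondria, in the order of replicates 1, 2 and 3. It had 3.05, 2.30 and 4.56 CPM with MitoCoat and 2.45, 2.82 and 4.79 CPM with MitoCoat-mRNA. Replicate 3 was the highest sample in 5 of 5 groups, at 1.19 to 1.48 times the mean of its group, and none of the other 7 genes had 1 replicate number highest in all groups. How many of all genes share such a pattern was not counted, and same-numbered samples deviated together across all genes in some pairs of groups. The labels do not say what the numbers stand for. All groups overlapped, and the largest log2 fold change of Ppargc1a against H2O2 alone was 0.37 with unmodified mitochondria, with a 95% interval from −0.32 to 1.07. It was 0.12 without H2O2 replicate 2, 0.22 without mitochondria replicate 3 and 0.77 without H2O2 replicate 3. With the replicate block it was 0.43 (−0.04 to 0.90, adjusted p = 0.335).

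**Figure D5:**
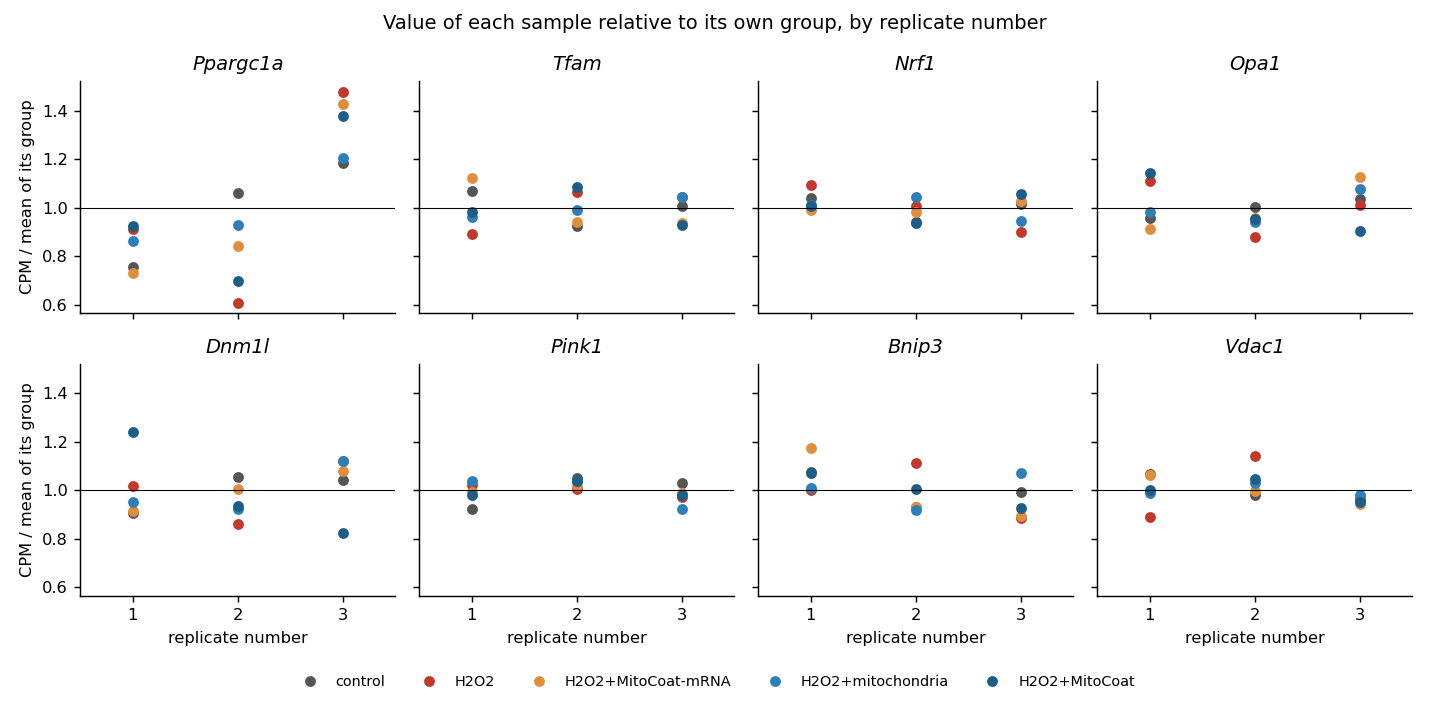
CPM of each sample divided by the mean of its group, against the replicate number, for the 8 genes, with dots coloured by group. In Ppargc1a the dots of replicate 3 lie between 1.19 and 1.48 in all 5 groups, and in Pink1 all dots lie between 0.921 and 1.05.

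For each of the 8 genes, the gene with the most similar profile over the 15 samples was the one with the highest Pearson correlation of log2 CPM (prior count 2) among 13297 genes with a mean of at least 1 CPM. These correlations describe 15 samples that share 5 group means and ranged from 0.880 for Nrf1 to 0.981 for Pink1. The gene most like Pink1 was ENSRNOG00000003262 on chromosome 10, and the gene most like Bnip3 was ENSRNOG00000006865 on chromosome 6 (correlation 0.884).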

How the data were processed

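Bulk RNA-seq of rat cortical astrocytes was analysed in 15 samples, grouped by their titles into 5 groups of 3. The authors deposited raw counts per gene. Their reads had been trimmed (Trimmomatic 0.36), mapped to the Rnor6.0 genome (STAR 2.5.2b) and, where uniquely mapped, counted on exons by featureCounts of Subread 1.5.2. The strand setting is not given in the sources used here. 1 further file was identical to a sample's file and was not used.

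The statistics were computed with edgeR 4.0.16 under R 4.3.3. Low genes were removed by filterByExpr, which all 8 genes passed in every comparison. Counts were normalized by TMM and tested by the two-sided quasi-likelihood test, with Benjamini-Hochberg adjustment over all genes tested and calls at an adjusted p under 0.05. Pairs of groups were fitted on their own 6 samples, and recipients on the 12 stressed samples. CPM are counts per 1000000 TMM-scaled counts. All 8 genes are named. The most similar gene was found for each and is named for Pink1 and Bnip3. The code was tested on simulated data, and replicates were checked not to be copies. Figures were drawn with matplotlib 3.10.9.

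The study used DESeq2's Wald test, which is an alternative here (DESeq2 1.42.0). The further alternatives were RLE scaling, keeping all genes with a count, 1 fit of all 15 samples, the replicate number as a block, each sample left out in turn, CPM without TMM and a prior count of 0.5. Numbers were taken to pair samples where every same-number correlation of deviations from the group means, across 16631 genes, exceeded 0.1. This held for unmodified mitochondria and H2O2 (0.219 to 0.264), MitoCoat-mRNA and H2O2 (0.109 to 0.326), MitoCoat and unmodified mitochondria (0.173 to 0.219) and MitoCoat-mRNA and control (0.114 to 0.404).

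The 8 genes, the comparisons and the motifs were chosen with earlier results of these data known. Planned lists of further pathway genes and cell type markers were not analysed here, because 0 of 32552 identifiers were paired with symbols by the reference table. Promoters came from RefSeq (GRCr8), where 8 of 8 genes matched by symbol.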

Additional observations from a re-analysis of the deposited data

How the results depend on the processing

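Among the settings that kept all samples (DESeq2, RLE size factors, a filter of 1 count, 1 fit of all samples and the replicate block), the number of the 8 genes called was within 1.5 times the reported one, except that it was 1 instead of 0 in the fit of all 15 samples for H2O2 against control and for unmodified mitochondria against H2O2, and 2 instead of 1 with the replicate block for MitoCoat-mRNA against control. The share of mitochondrial counts, the group means of CPM without TMM and the most similar genes kept their values within the spread between replicates. With 1 sample left out, the number called was 0 for MitoCoat against H2O2 (6 of 6 fits), 0 to 1 for MitoCoat-mRNA against control, 1 to 3 for unmodified mitochondria against control and 1 to 2 for MitoCoat against control. The share of all genes called also changed in such fits, to 7.82% to 17.4% for MitoCoat-mRNA, 13.3% to 23.6% for unmodified mitochondria and 13.3% to 24.1% for MitoCoat, each against control, 1.59% to 2.78% for unmodified mitochondria and 1.24% to 2.65% for MitoCoat, each against H2O2, and 2.34% to 7.31% for H2O2 against control. The cause was not tested.

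Changes of direction concerned uncalled genes only. The log2 fold change of Ppargc1a in H2O2 against control was −0.037 with the replicate block, and that of Nrf1 with MitoCoat against H2O2 was 0.0024 in the fit of all samples. The block changed no other call among the 8 genes in the 9 comparisons. Over all genes, the number called for MitoCoat against H2O2 was 479, and it was 924 with the block (where the numbers do not pair the samples), 902 with DESeq2 and 904 in the fit of all samples. DESeq2 called 1781 genes instead of 1125 for H2O2 against control and 883 instead of 560 for unmodified mitochondria against H2O2, and the fit of all samples called 1726 for H2O2 against control.

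With 1 sample left out, these ranges of the log2 fold change crossed 0. For H2O2 against control, it was −0.38 to 0.27 for Ppargc1a, −0.025 to 0.11 for Tfam and −0.039 to 0.12 for Opa1. For unmodified mitochondria against H2O2, it was −0.0026 to 0.12 for Tfam, −0.15 to 0.022 for Opa1 and −0.039 to 0.14 for Vdac1. For MitoCoat against H2O2, it was −0.13 to 0.57 for Ppargc1a, −0.083 to 0.061 for Nrf1, −0.18 to 0.017 for Opa1, −0.22 to 0.092 for Dnm1l, −0.10 to 0.074 for Bnip3 and −0.071 to 0.12 for Vdac1. For MitoCoat-mRNA against H2O2, it was −0.14 to 0.60 for Ppargc1a, −0.049 to 0.088 for Tfam, −0.019 to 0.16 for Opa1, −0.034 to 0.18 for Bnip3 and −0.052 to 0.13 for Vdac1. For MitoCoat against unmodified mitochondria, it was −0.49 to 0.0070 for Ppargc1a, −0.10 to 0.083 for Opa1 and −0.052 to 0.020 for Vdac1. For unmodified mitochondria against control, it was −0.085 to 0.0078 for Opa1. For MitoCoat against control, it was −0.12 to 0.38 for Ppargc1a and −0.15 to 0.039 for Opa1. For MitoCoat-mRNA against control, it was −0.12 to 0.39 for Ppargc1a and −0.021 to 0.12 for Tfam. For recipients against the other stressed samples, it was −0.055 to 0.014 for Nrf1 and −0.026 to 0.066 for Vdac1.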
